A study of Mus musculus with 6 samples.

Results

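The Wnt ligands, the Frizzled receptors and the genes through which a Wnt signal is received and answered were followed in bulk RNA sequencing of mouse growth plate cartilage. Members were chosen by gene symbol: every Wnt and Fzd gene, together with Lrp5, Lrp6, Ror1, Ror2, Ryk, Ctnnb1, Lef1, Tcf7, Axin2, Nkd1, Nkd2 and Notum. The rule took 42 of the 46078 genes listed, under 41 symbols, since Fzd6 is listed again on a patch sequence with 0 counts in every library. They comprised 19 Wnt ligands, 11 Frizzled entries, 2 Lrp co-receptors, 3 Ror and Ryk receptors, 3 genes of β-catenin and its nuclear partners, and 4 feedback targets. Counts were high enough to test 34 of them, and each of these had at least 20 counts in every library.

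Growth plates of the distal femur and proximal tibia were taken at E18.5. The Idh1 mutant group (3 libraries) was Col2a1-Cre; Idh1 LSL/+, in which Cre, driven by type 2 collagen regulatory elements, removes a stop cassette in front of a mutant Idh1. The allele carries an arginine-to-glutamine substitution, per the study's methods. The control group (3 libraries) was littermates, per the paper's bulk methods, and its single-cell section gives the controls as Idh1 LSL/+ without Cre. On that genotype, both groups carried the knock-in allele and only the mutants carried Cre. An effect of Cre itself and one of mutant Idh1 cannot be told apart in this design. A growth protocol in the labels speaks of mice aged 2 months, whereas the age field gives E18.5, which is used here. The strain is not given in the sources used here, and the labels do not say whether each library came from a separate animal, so the p-values measure the spread between these libraries.

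Libraries held 23445687 to 30415773 counts in genes. Idh1 itself, whose counts do not separate mutant from normal transcripts, stood at 47.3 CPM (counts scaled to library size) in controls and 50.6 CPM in mutants on average (log2 fold change 0.10, SE 0.19, edgeR adjusted p = 0.940), so its level does not check the genotype labels. Mutant 3 stood apart in sex-linked counts, with 26356 for Xist against at most 13 in any other library. It had 512 counts on the Y chromosome against 4193 to 5829. Such counts were therefore not balanced between the groups. Cartilage genes were abundant (Col2a1 1923 to 5245 CPM), and so was Col1a1 (33200 to 47780 CPM), a collagen of bone and fibrous tissue. Control 3 had the lowest summed level of 10 cartilage markers, 4018 CPM against 6308 to 8938 CPM in the other libraries. Skeletal muscle genes were more abundant, with 10 markers summing to between 14920 CPM (mutant 3) and 23230 CPM (control 3). The libraries are thus of mixed tissue, and the part of muscle in the member levels was not tested. In such bulk tissue, fewer cells of a type and less RNA per cell cannot be told apart.

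Wnt proteins are lipid-modified signals that bind Frizzled receptors at the cell surface. With the co-receptors Lrp5 and Lrp6, a Wnt stabilises β-catenin. This protein enters the nucleus and switches on target genes with factors such as Tcf7 and Lef1. Ror1, Ror2 and Ryk instead carry β-catenin-independent signals that guide cell shape and orientation. In the growth plate and joint, Wnt signals are known to steer chondrocyte proliferation and maturation, column formation and the making of articular cartilage.

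Among the members, 2 of 34 differed between the groups after Benjamini-Hochberg adjustment over all 16813 genes tested with edgeR's quasi-likelihood test, the receptor gene Fzd1 and the ligand gene Wnt4, both lower in the mutants by about the same proportion. That is 5.88% of the members tested, beside 0.190% (32 genes) of all genes tested. At an unadjusted p under 0.05, 7 members were lower (20.6%, against 4.93% of all genes) and 0 were higher (against 3.71%). Every mutant library lay below every control library for 6 members (17.6%, against 7.58%), namely Fzd1, Wnt4, Nkd2, Fzd7, Wnt7b and Wnt2b, and above for 0 (against 6.85%). The median log2 fold change was -0.17 over the members and -0.0026 over all genes tested. Fitted values were below 0 for 29 of 34 members (85.3%, against 50.7% of all genes), over a range of -0.81 to 0.35.

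**Figure D1:**
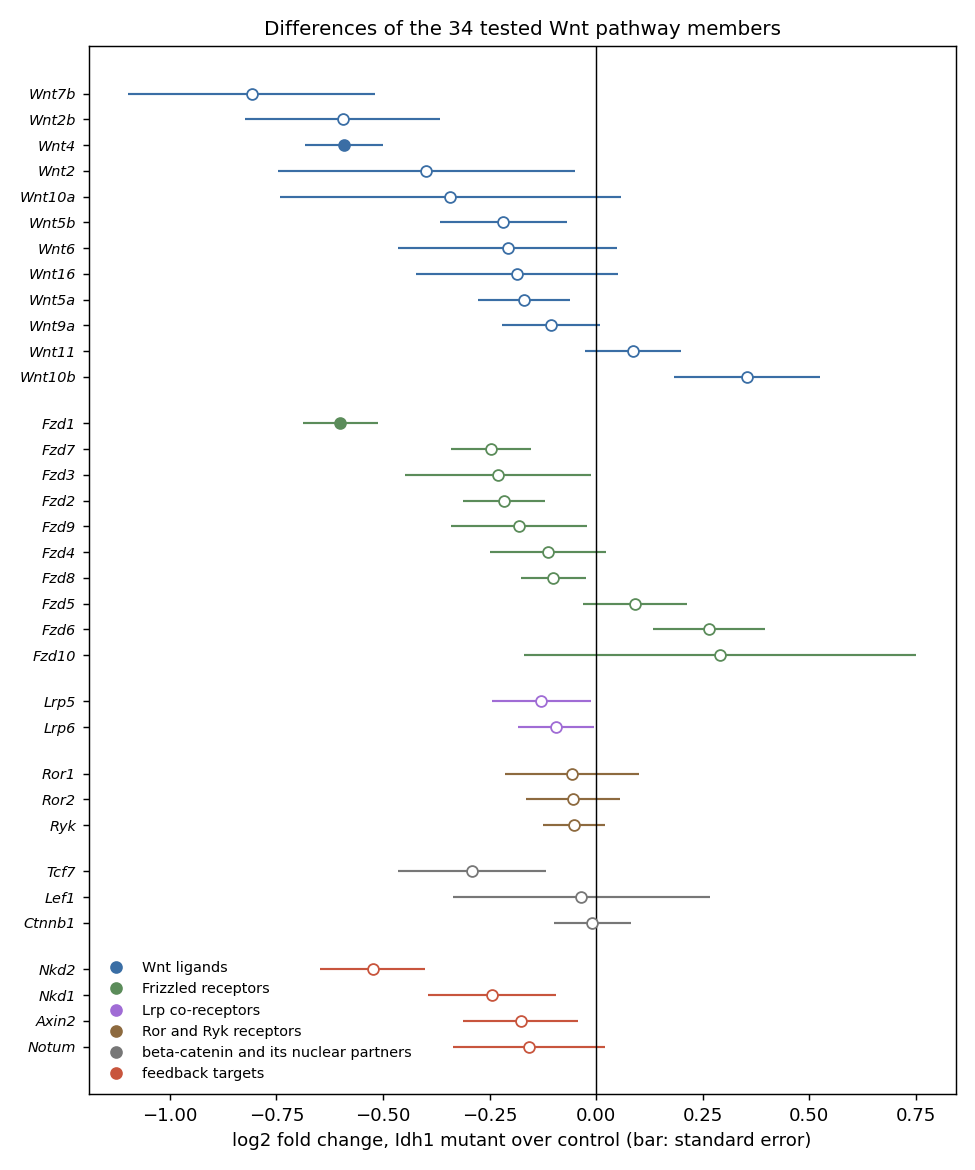
Log2 fold change of each of the 34 tested members, Idh1 mutant over control, with its standard error as a bar, grouped by role; filled points passed an adjusted p of 0.05. Only Fzd1 and Wnt4 are filled, and 29 of the 34 points lie left of 0.

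Fzd1 encodes a seven-pass receptor for Wnt ligands and consists of a single exon at chr5:4753839-4758035 on the minus strand (GRCm38). Controls 1 to 3 had 48.2, 53.5 and 57.8 CPM, and mutants 1 to 3 had 35.4, 35.9 and 34.1 CPM. The groups were far apart, and the mutant libraries lay closer together than the controls. Fzd1 fell to 0.660 of its control level (log2 fold change -0.60, SE 0.088, edgeR adjusted p = 0.0374), and its unadjusted p ranked 24 among all genes.

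Wnt4, a ligand made in the developing joint and the maturing growth plate, lies at chr4:137277489-137299726 on the plus strand. Its levels were 22.8, 22.6 and 24.5 CPM in controls and 16.2, 14.9 and 15.4 CPM in mutants. All 3 mutant libraries were below all 3 controls with a wide gap. Wnt4 fell to 0.664 of control (log2 fold change -0.59, SE 0.092, edgeR adjusted p = 0.0444, rank 32). Nkd2, a Dishevelled-binding inhibitor that Wnt signalling induces, lies at chr13:73818534-73847631 on the minus strand and had 16.2, 20.2 and 18.6 CPM in controls against 12.5, 14.3 and 11.5 CPM in mutants. Its groups did not overlap either, but it did not pass the adjusted threshold (log2 fold change -0.52, SE 0.12, edgeR adjusted p = 0.192).

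No member passed when any 1 of the 6 libraries was left out. Adjusted p then ran from 0.0578 to 0.188 for Fzd1 and from 0.0965 to 0.243 for Wnt4 in edgeR, while the log2 fold changes stayed between -0.67 and -0.53 and between -0.62 and -0.55. Without mutant 3, the library that stood apart in sex-linked counts, Fzd1 had an adjusted p of 0.156 and Wnt4 of 0.192 in edgeR. DESeq2 called Fzd1 (adjusted p = 3.29e-05), Wnt4 (0.000469) and Nkd2 (0.0398), and limma-voom called 0 members, with Fzd1 just above the threshold and Wnt4 at an adjusted p of 0.0595.

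**Figure D2:**
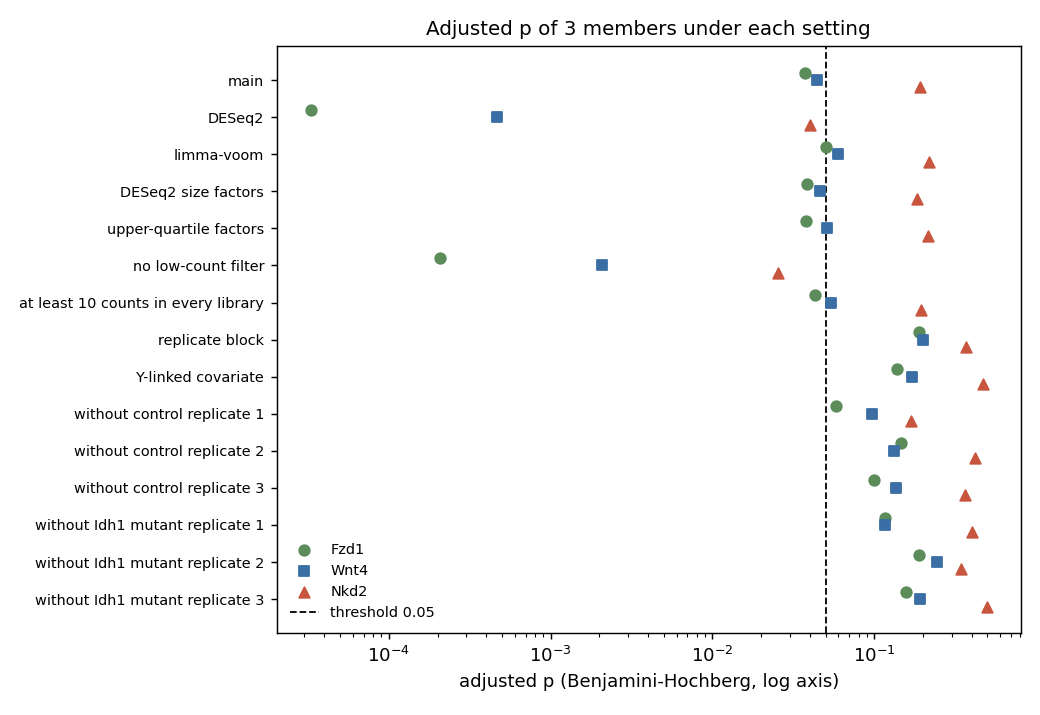
Benjamini-Hochberg adjusted p (log axis) of Fzd1, Wnt4 and Nkd2 in the edgeR fit used here, in other tools and normalizations, and with each library left out; the dashed line is 0.05. Fzd1 spans 3.29e-05 to 0.188, and all 3 genes lie right of the line whenever a library is left out.

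The sequence before the start site is shown for these 3 genes because they had the lowest p-values of the members. The windows are the 250 bases before the RefSeq start (GRCm38.p6), printed in the direction of the gene and, for Wnt4, stopped at base 104, where the gene as counted begins. Capitals mark the one match to CTTTGA, the core of the Tcf and Lef binding motif, searched on both strands. Fzd1 is at chr5:4758217-4758466 (minus strand), Wnt4 at chr4:137277385-137277488 (plus strand) and Nkd2 at chr13:73847632-73847881 (minus strand).
Fzd1: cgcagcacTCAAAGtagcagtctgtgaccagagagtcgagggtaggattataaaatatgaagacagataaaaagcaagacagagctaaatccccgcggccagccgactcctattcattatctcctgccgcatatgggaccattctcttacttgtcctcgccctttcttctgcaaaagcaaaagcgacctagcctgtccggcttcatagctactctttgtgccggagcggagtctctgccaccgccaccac
Wnt4: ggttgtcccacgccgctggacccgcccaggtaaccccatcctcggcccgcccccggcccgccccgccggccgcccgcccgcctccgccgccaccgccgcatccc
Nkd2: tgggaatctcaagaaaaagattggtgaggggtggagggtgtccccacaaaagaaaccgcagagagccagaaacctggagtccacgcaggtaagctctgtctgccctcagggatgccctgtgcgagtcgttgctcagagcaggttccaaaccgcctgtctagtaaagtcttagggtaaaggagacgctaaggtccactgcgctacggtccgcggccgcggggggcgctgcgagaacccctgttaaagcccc
Base composition differed widely between them: G and C made up 51.2% of the Fzd1 window, 85.2% of the whole 250-base Wnt4 window and 58.4% of the Nkd2 window, against a median of 52.4% over 32851 windows. Over the whole windows, the number of CG pairs was 12, 44 and 14. The Fzd1 match is on the opposite strand (TCAAAG as printed) and begins 242 bases before the start (position -242). CTTTGA on either strand was in 13.8% of all windows and in 5 of the 38 windows of the 30 members in the RefSeq table, those of Fzd1, Lef1, Ror1, Wnt11 and Wnt5b. The longer CTTTGAT, which contains it, was in 3.21% of all windows and in 2 of the 38, those of Wnt11 and Wnt5b.

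Among the ligands, levels per length of transcript (RPKM, the CPM divided by exon length in kilobases) fell into 3 tiers whose ranges over the 6 libraries did not overlap. The top tier held Wnt9a at 9.33 RPKM, Wnt5a at 7.31, Wnt5b at 6.13, Wnt11 at 4.70, Wnt4 at 4.62 and Wnt10b at 4.54, and each overlapped its neighbour in that order. The middle tier ran from Wnt2 at 1.48 RPKM through Wnt16, Wnt7b, Wnt2b and Wnt6 to Wnt10a at 0.518, again with each overlapping the next. Below it were the 7 ligand genes that were not tested. Wnt1 had 0 to 7 counts and Wnt9b 1 to 5 counts in a library, while Wnt3, Wnt7a, Wnt8a and Wnt8b never exceeded 1 count. Wnt3a had 0 counts in all 6 libraries, which allows up to 3 counts, or 0.0979 to 0.127 CPM, in counting error only.

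**Figure D3:**
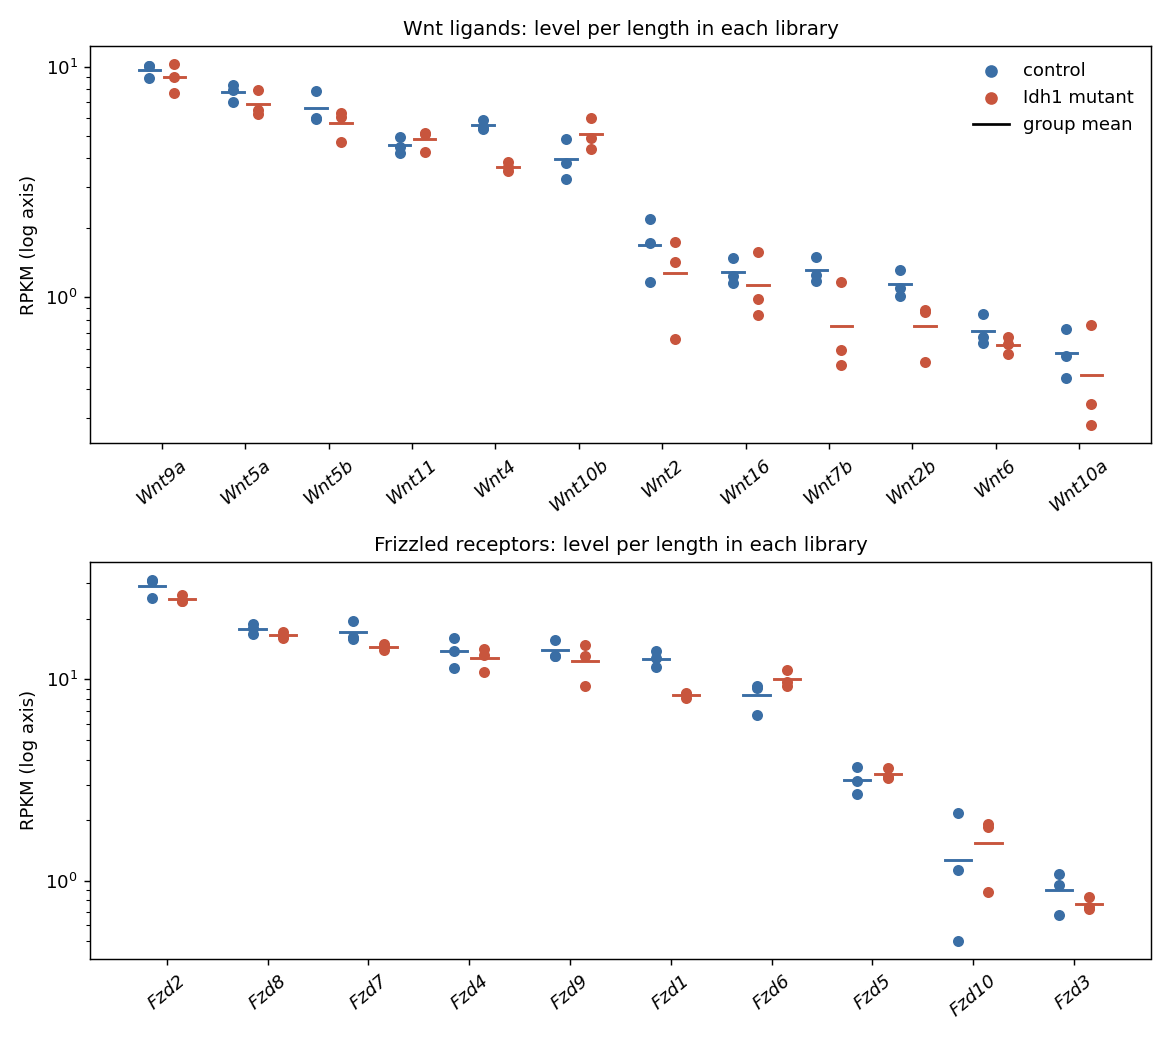
Level per length (RPKM, log axis) of the 12 tested Wnt ligands and the 10 tested Frizzled receptors, ordered by mean, with a point for each library and a bar at each group mean. The gap between Wnt10b and Wnt2 separates the ligand tiers, and Fzd2 stands above the other receptors.

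Neighbouring Wnt genes were at unlike levels in some pairs and at like levels in others. Wnt9a, the most abundant ligand gene, is 16175 bases from Wnt3a, which had 0 counts. Wnt10b at 4.54 RPKM is 11706 bases from Wnt1 at 0.0584 RPKM. Wnt6 and Wnt10a, 6193 bases apart, were both in the middle tier (0.671 and 0.518 RPKM), and Wnt9b and Wnt3, 24328 bases apart, were both near 0.

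Wnt9a, needed for joint formation, had 33.4, 33.5 and 29.7 CPM in controls and 25.6, 30.1 and 34.2 CPM in mutants. Wnt5a, the main ligand of Ror2 and a regulator of column formation, had 54.8, 61.9 and 64.9 CPM against 50.9, 61.9 and 48.8 CPM. Wnt5b, its close relative, had 16.0, 15.7 and 20.8 CPM against 16.7, 16.0 and 12.5 CPM. In all 3 of these abundant ligands the groups overlapped, and none passed (edgeR adjusted p of 0.871, 0.734 and 0.759).

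The less abundant ligands Wnt7b and Wnt2b showed the largest fitted differences beside Wnt4. Wnt7b, a ligand known to promote bone formation, had 5.54, 6.59 and 5.20 CPM in controls and 5.13, 2.6 and 2.24 CPM in mutants, so mutant 1 was just below the lowest control. The log2 fold change was -0.81 (SE 0.29, edgeR adjusted p = 0.467), and its exons share 324 bases with AU022754 on the other strand. Without mutant 1 the value was -1.26 (edgeR adjusted p = 0.116), and without mutant 3 it was -0.584. Wnt2b had 4.62, 4.27 and 5.53 CPM against 2.20, 3.62 and 3.69 CPM, with mutant 1 the lowest (log2 fold change -0.59, SE 0.23, edgeR adjusted p = 0.506), and -0.395 without that library. Wnt10b, which favours bone formation over fat, had a fitted value above 0: 8.95, 11.3 and 7.62 CPM in controls and 11.4, 14.0 and 10.3 CPM in mutants, with overlapping groups (log2 fold change 0.35, SE 0.17, edgeR adjusted p = 0.629). The other ligands ranged in log2 fold change from -0.40 (Wnt2) to 0.09 (Wnt11), with overlapping groups.

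Summed over all ligand genes, the level per length was 42.7, 46.6 and 45.4 RPKM in controls and 39.1, 41.8 and 40.03 RPKM in mutants, which did not overlap. Wnt4 alone made up 40.7% of the net difference of the means, against -24.3% for Wnt10b and -6.11% for Wnt11, which had higher means in mutants. With Wnt4 left out, the sum of control 1 lay below that of mutant 2, so the groups overlapped. Wnt4 held 12.4% ± 0.737 of the ligand total in controls and 9.17% ± 0.676 in mutants (SD, 3 libraries each). The share of Wnt10b was 8.85% ± 1.6 and 12.6% ± 1.67. Such shares move together by construction, and no test was made of the sums.

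Among the receptors, Fzd2 was the most abundant per length at 27.2 RPKM, 24.2% of the Frizzled total, and its range of 24.5 to 31.4 RPKM lay above that of the next. Fzd8, Fzd7, Fzd4, Fzd9, Fzd1 and Fzd6 followed from 17.3 down to 9.18 RPKM, each overlapping its neighbour. Fzd5 at 3.27 RPKM stood apart from both sides, and Fzd10 and Fzd3 were lowest at 1.40 and 0.832 RPKM.

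Fzd2 and Fzd7 are the closest relatives of Fzd1, and they form one subfamily of receptors. This grouping was made after the values were seen. Fzd7 had 73.3, 72.2 and 88.9 CPM in controls and 67.6, 66.4 and 63.6 CPM in mutants, with no overlap (log2 fold change -0.25, SE 0.094, edgeR adjusted p = 0.502). Fzd2 had 92.7, 114.9 and 113.2 CPM against 90.2, 96.2 and 89.8 CPM, where control 1 lay below mutant 2 (log2 fold change -0.22, SE 0.095, edgeR adjusted p = 0.569). Fzd1, Fzd2 and Fzd7 were the receptor genes with an unadjusted p under 0.05 in edgeR (5.50e-05, 0.0480 and 0.0267).

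**Figure D4:**
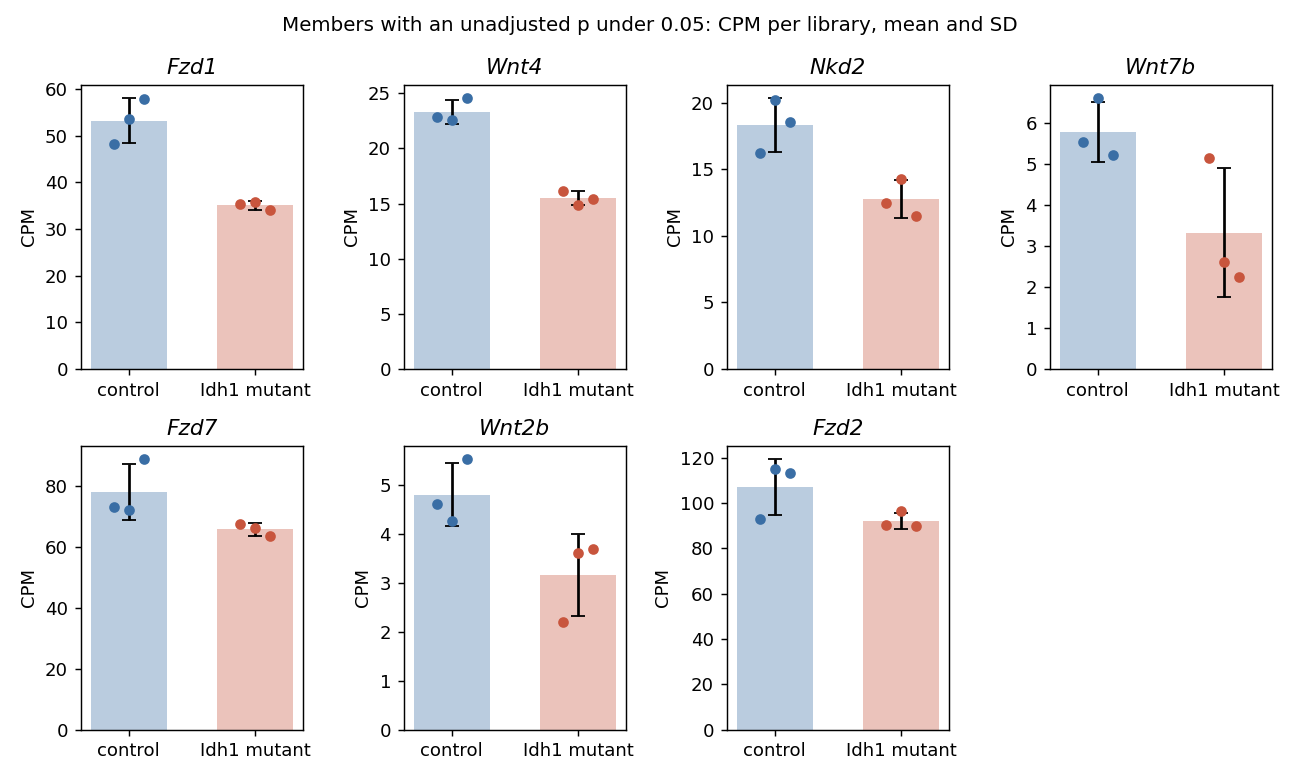
CPM of the 7 members with an unadjusted p under 0.05, with a point for each library, a bar at the group mean and the SD over 3 libraries. The mutant libraries lie below the controls in every panel except that of Fzd2, where control 1 at 92.7 CPM is below mutant 2 at 96.2 CPM.

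Fzd8, next to Fzd2 in mean RPKM but overlapping Fzd7, had 60.0, 56.5 and 62.8 CPM in controls and 54.0, 57.9 and 55.3 CPM in mutants, with overlapping groups (edgeR adjusted p = 0.794). Fzd6, which acts in planar polarity, had a fitted value above 0, with 37.3, 38.4 and 27.7 CPM against 39.97, 38.2 and 46.0 CPM. Its groups overlapped and it did not pass (log2 fold change 0.26, SE 0.13, edgeR adjusted p = 0.632). Fzd10 and Fzd5 likewise had fitted values above 0 (0.29 and 0.09), whereas those of Fzd3, Fzd4 and Fzd9 were -0.23, -0.11 and -0.18, and the groups overlapped in each.

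The Frizzled total was 114.5, 117.2 and 123.5 RPKM in controls and 107.7, 105.8 and 103.0 RPKM in mutants, without overlap. Fzd1 made up 33.4%, Fzd2 31.4% and Fzd7 21.0% of the difference of the means, while Fzd6 differed in the opposite direction by 1.68 RPKM. The Fzd1 share of the total was 10.7% ± 0.583 in controls and 7.92% ± 0.135 in mutants (SD, 3 libraries each).

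The co-receptors and the alternative receptors did not pass in edgeR, and their groups overlapped. Lrp5, best known for setting bone mass, had 155.4, 165.9 and 208.5 CPM in controls and 174.8, 158.0 and 152.0 CPM in mutants (log2 fold change -0.13, SE 0.12). Lrp6, its partner in β-catenin signalling, had 159.2, 155.3 and 186.7 CPM against 151.0, 160.2 and 158.5 CPM (-0.09, SE 0.090). In both, control 3 was the highest library. Ryk, a receptor with an inactive kinase domain, had 106.9, 103.3 and 106.2 CPM against 96.7, 104.3 and 104.0 CPM (-0.05, SE 0.073). Ror2, a Wnt5a receptor needed for limb cartilage growth, had 39.8, 42.6 and 50.4 CPM against 47.4, 39.5 and 41.0 CPM (-0.05, SE 0.11). Ror1, its relative, had 42.3, 31.4 and 40.8 CPM against 34.5, 30.3 and 45.0 CPM (-0.06, SE 0.16). These fitted values were within about 1 standard error of 0.

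Ctnnb1, which encodes β-catenin, was the most abundant member at 138.1 RPKM. It had 750.8, 700.5 and 667.3 CPM in controls and 685.4, 713.7 and 707.3 CPM in mutants (log2 fold change -0.0084, SE 0.090, edgeR adjusted p = 0.991), and the sign turned under upper-quartile scaling (0.0028). The groups overlapped closely. Tcf7, a DNA-binding partner of β-catenin, had 19.1, 19.2 and 16.4 CPM against 18.9, 14.9 and 11.03 CPM, the lowest being mutant 3 (log2 fold change -0.29, SE 0.17, edgeR adjusted p = 0.708). Lef1, another such partner, was scarce, with 3.02, 5.02 and 5.02 CPM against 6.14, 3.86 and 2.83 CPM (-0.03, SE 0.30). It varied widely within each group, and 1208 bases of its exons overlap Gm43352. Tcf7l1 and Tcf7l2, partners of the same family outside the members, were more abundant, at 58.26 to 82.16 and 35.95 to 43.65 CPM. Their groups overlapped (log2 fold changes -0.12 and -0.0078, edgeR adjusted p of 0.868 and 0.991).

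The 4 feedback targets, which Wnt signalling induces and which damp it in turn, all had fitted values below 0, and none passed. Axin2, a scaffold of the complex that degrades β-catenin and the usual readout of the pathway, had 21.6, 25.4 and 30.4 CPM in controls and 23.6, 24.8 and 20.2 CPM in mutants (log2 fold change -0.18, SE 0.14, edgeR adjusted p = 0.793). Nkd1, the relative of Nkd2, had 27.7, 33.0 and 41.7 CPM against 32.0, 29.6 and 24.9 CPM (-0.24, SE 0.15, edgeR adjusted p = 0.720). Notum, an enzyme that removes the lipid from Wnt proteins, had 6.93, 8.26 and 5.78 CPM against 7.16, 6.30 and 5.38 CPM (-0.16, SE 0.18, edgeR adjusted p = 0.876). Among these 4, only Nkd2 had groups without overlap. The values of Axin2 and Nkd1 depended on single libraries, since without control 3 they were -0.0404 and -0.073, and without control 1 they were -0.292 and -0.376. The summed level per length was 16.4, 19.7 and 21.2 RPKM in controls and 17.1, 16.8 and 13.9 RPKM in mutants, which overlapped.

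Beyond the members, 75 further genes of the pathway in 6 lists were all listed, and 0 of the 70 tested passed in edgeR (8 at an unadjusted p under 0.05), in DESeq2 (7) or in limma-voom (9). Their median log2 fold change was -0.05. Of the 8, 7 were lower and 1 was higher (beside 4.93% and 3.71% of all genes), and 10 of the 70 had mutants wholly below controls and 0 wholly above (beside 7.58% and 6.85% of all genes). No test was made of these counts. R-spondins keep Frizzled receptors at the cell surface by holding off the ubiquitin ligases Rnf43 and Znrf3, which remove them. The list of R-spondins, their Lgr receptors and these ligases had a median of -0.23 over 6 tested genes. Its receptor genes Lgr5 (-0.41) and Lgr6 (-0.43) had unadjusted p of 0.0189 and 0.0337 in edgeR. Lgr4, at 40.7 to 50.9 CPM against 8.17 to 19.4 CPM for those receptor genes, had a log2 fold change of 0.06 (edgeR adjusted p = 0.930). The planar polarity list had a median of -0.16 over 16 genes, 4 of them with mutants wholly below controls (beside 7.58% of all genes), and its lowest p belonged to Daam1 (-0.30) and Invs (-0.26). The secretion list had a median of 0.09 over 7 genes, with the Wnt carrier Wls at 0.16 and the cargo receptor Tmed2 at 0.14. It also holds the glypican genes Gpc3 (-0.17), Gpc4 (0.01) and Gpc6 (0.12), whose proteins sit at the cell surface. Its median is therefore not one of secretion genes alone.

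In the remaining 3 lists the medians lay near 0: -0.03 over 13 genes of the destruction complex and Dishevelled, -0.03 over 12 of the nuclear β-catenin complex and -0.02 over 16 other target genes. Their genes of lowest p were Amer2 (-0.72) and Gsk3b (-0.11), Pygo1 (-0.21) and Pygo2 (-0.18), and Wisp2 (0.99) and Tnfrsf19 (-0.32). None of these passed.

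For 3 of 10 marker lists of cell types the summed level did not overlap between the groups. Summed over 5 tendon and ligament markers, the level was 2993 to 3288 CPM in controls and 2004 to 2341 CPM in mutants, and 4 of the 5 (Scx, Tnmd, Mkx and Fmod) had mutants wholly below controls, with Tnmd at a log2 fold change of -0.81 (edgeR adjusted p = 0.0374). Blood markers summed to 544.9 to 1583 CPM against 287.9 to 426.9 CPM, with 5 of 6 wholly below. Epidermal markers were scarce, at 15.02 to 26.9 CPM against 12.9 to 14.96 CPM, and only 1 of the 6 tested, Krt5, was wholly below. With Krt5 left out, the epidermal sums overlapped between the groups. Krt5 had 83, 242 and 153 counts in controls and 8, 0 and 11 in mutants, and Dsg3 had 0 in every library. The other 7 lists (cartilage, bone, skeletal muscle, joint surface and synovial, endothelium, macrophage and osteoclast, nerve sheath) overlapped between groups in their sums. Within them, 3 of 8 endothelial genes (Kdr, Emcn and Esam) and 2 of 6 macrophage and osteoclast genes (Csf1r and Adgre1) had mutants wholly above controls. The others of these lists overlapped, and Cdh5, Cldn5, Ctsk and Mmp9 had fitted values below 0. Of the bone genes, Dmp1 lay wholly above and Runx2 wholly below. The bone sum, 34140 to 48210 CPM, was mostly Col1a1 (33200 to 47780 CPM), so its overlap says little of the other bone genes. Only Runx2 (-0.36) had a fitted value below 0, while Dmp1 was at 1.75, Ibsp at 1.32 and Spp1 at 0.79. None of the bone genes passed in edgeR. Over all genes tested, 7.58% lay wholly below and 6.85% wholly above. Any part of tendon, blood or skin tissue in the lower Fzd1, Wnt4, Nkd2 and other member levels was not tested.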

How the data were processed

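Growth plate RNA of 3 control and 3 Idh1 mutant libraries was sequenced as 50 bp single reads from a stranded poly(A) kit. The authors deposited raw counts per gene, made, per the labels and methods, with Trim Galore 0.6.4, STAR 2.6.1d and featureCounts 1.6.4 on exons of GRCm38. Counting ignored strand, so reads of a gene and its antisense partner cannot be told apart. Exons of 8 of the 34 tested members overlap another annotated gene (Fzd5, Wnt11, Wnt5a, Wnt7b, Ctnnb1, Lef1, Axin2, Notum), and these counts are uncertain.

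Genes were kept by filterByExpr (minimum count 10, minimum total 15), TMM-scaled and tested by genotype with edgeR 4.0.16 (R 4.3.3, quasi-likelihood, Benjamini-Hochberg over 16813 genes, threshold 0.05). CPM used TMM-scaled totals, and RPKM the exon length in the files. Alternatives used DESeq2 1.42.0, limma 3.58.1, other scalings and filters, a replicate block, a Y-linked covariate and leaving out each library. Litters, part of the model in the study's methods, are not in the labels. Scripts were tested on simulated data. Plots used matplotlib 3.10.9 (Python 3.11.15).

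Members and gene lists were chosen with earlier results of these data known. Values in every library are given for members with an unadjusted p under 0.05, members whose groups do not overlap, the 3 most abundant ligands and Frizzled receptors, and all members of the other roles. Each pathway list is represented by its 2 genes of lowest p. Wnt10b, Fzd6 and the other pathway genes and markers with values were picked after these were seen. Intervals from counts cover counting error only.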

Additional observations from a re-analysis of the deposited data

How the results depend on the processing

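Under all 14 alternatives Fzd1, Wnt4 and Nkd2 remained below control, and the number of members called (2) was 3 with DESeq2 and with no low-count filter (Fzd1, Nkd2 and Wnt4), 2 with DESeq2 size factors, 1 with upper-quartile factors and with at least 10 counts in every library (Fzd1 in each), and 0 with limma-voom, the replicate block, a Y-linked covariate and each library left out (0 to 0). Genes called over the whole table (32) were 193 with DESeq2, 19 with limma-voom, 259 with no low-count filter, 3 with the replicate block, 6 with the Y-linked covariate and 3 to 17 with a library left out. What caused these changes was not tested, and the fits with a library left out also had fewer libraries. Pathway genes called were 0 throughout. The Y-linked covariate mainly marks mutant 3 (512 Y-linked counts against 4193 to 5829), so it is not a check separate from leaving that library out. The log2 fold changes in these fits were -0.586 and -0.579 for Fzd1 and -0.592 and -0.589 for Wnt4. Same-numbered libraries did not vary together (correlations of deviations from the group means -0.127, 0.007 and -0.0953). With 3 libraries in a group, such values cannot tell whether same-numbered libraries were littermates. With the replicate block Fzd1 had an adjusted p of 0.188 and Wnt4 of 0.200 in edgeR. Over the alternatives adjusted p ran from 3.29e-05 to 0.188 for Fzd1 (under 0.05 in 5 of 14), 0.000469 to 0.243 for Wnt4 (3 of 14) and 0.0253 to 0.495 for Nkd2 (2 of 14). Members without overlap were 6, and 5 with upper-quartile factors or 7 when all members with a count were taken, then with Wnt1 (0 to 3 counts in controls, 3 to 7 in mutants). The median member log2 fold change, -0.17, was -0.231 to -0.0903 with a library left out, nearest 0 without control 3 and without mutant 3 (-0.103). The sign turned with upper-quartile factors for Ctnnb1 (0.00282) and with the Y-linked covariate for Lef1 (0.155). Leaving out a library also turned it for 8 members, whose ranges were -0.234 to 0.0676 (Ror1), -0.228 to 0.0122 (Fzd4), -0.0449 to 0.0366 (Ctnnb1), -0.00924 to 0.216 (Fzd5), -0.386 to 0.197 (Lef1), -0.0892 to 0.925 (Fzd10, 0.29 with an SE of 0.46 over all libraries), -0.136 to 0.0517 (Ror2) and -0.214 to 0.0113 (Lrp5). The 7 ligand genes that were not tested had counts too low to test.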
